A study of Mus musculus with 20 samples.

Results

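The inhibitor CI994 was given to mouse breast cancer cells in which Tet2 was knocked down, and the transcriptome of the treated cells was compared with that of the same knockdown cells without it. The samples were chosen by their labels: 2 libraries of shTet2 cells kept in 2 µM CI994 for 72 hours and 2 libraries of shTet2 cells without CI994, 4 of the 20 libraries of the series. All 4 were made from M3, a single stable mesenchymal clone of Py2T, a line derived from a breast tumour of an MMTV-PyMT mouse, in which the polyoma middle T antigen is driven by the mouse mammary tumour virus promoter. The cells grew in DMEM with 10% fetal bovine serum, and RNA came from 2 independent experiments. All groups used here carried an shRNA. The other groups of this design were M3 cells with a control shRNA or with an shRNA against Mbd3, each without CI994 and with CI994 at the same dose and time, 2 libraries per group. No vehicle is named for the untreated cells, and the labels name 1 shRNA line per target.

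CI994 (tacedinaline) is a benzamide that inhibits class I histone deacetylases, chiefly Hdac1, Hdac2 and Hdac3. These enzymes remove acetyl groups from histone tails within corepressor complexes such as NuRD, Sin3, CoREST and NCoR, and blocking them raises histone acetylation and can raise or lower transcription. Tet2 converts methylated cytosine in DNA to hydroxymethylcytosine, a step toward demethylation, and NuRD contains Mbd3 among its subunits. In an epithelial-mesenchymal transition, epithelial cells lose junction proteins such as E-cadherin and gain mesenchymal and matrix genes, and the series title names the plasticity between these states as its question.

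Each library held 16086082 to 24977595 reads assigned to genes over the 12 shRNA libraries, and expression is given as CPM, a gene's reads scaled to a fixed library total. Tet2 itself was lower in untreated shTet2 cells (8.41 and 7.97 CPM) than in untreated shControl cells (15.2 and 13.8 CPM), with an adjusted p of 0.0176 in limma, and the groups did not overlap. With CI994 Tet2 was at 6.30 and 7.42 CPM in shTet2 cells. Of the epithelial keratins that mark a luminal origin, Krt8 was at 1143 to 1541 CPM and Krt18 at 1786 to 2104 CPM over the 4 shTet2 libraries. Replicate 1 of the untreated shControl group stood apart: the SD of the log2 difference between the replicates of its group was 0.703, against 0.206 to 0.243 in the other 5 groups, and its Mbd3 level was 5.40 CPM against 66.5 CPM in its partner. That library enters the comparison of shTet2 cells only through the spread that all 12 libraries share. Counts are therefore followed by the count in a fit of the 11 libraries without it.

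CI994 changed many genes in shTet2 cells. In the fit of 12 libraries (limma on log2(CPM + 0.5), Benjamini-Hochberg adjusted p under 0.05), 1610 genes were higher and 1498 lower with CI994 among 12808 tested, which is 24.3% of them called, 12.6% higher and 11.7% lower. The 11-library fit called 3737 genes higher and 3631 lower, 57.5% of those tested, and all 3108 genes called in the 12-library fit were called there. The library left out belongs to neither group compared, so the direction of a change could hardly differ between these fits and is no check on it. The rises were larger than the falls and began at lower levels. The median log2 change was 1.03 among called rises and -0.64 among called falls, and the median untreated level was 3.51 CPM for the rises and 69.6 CPM for the falls. Of the rises 837 exceeded a log2 change of 1 and 152 exceeded 2. Of the falls 172 went below -1 and 10 below -2. Genes silent or nearly so without the inhibitor made up a large share of the rises: 549 of 1610 (34.1%) had under 1 CPM untreated, against 12.4% of all tested genes. A gene with little signal in untreated cells could be tested only if it reached 0.5 CPM in 2 or more of the 12 libraries, so the test could reach such genes mainly as rises. Genes at 0 numbered 10043 and 10090 in the untreated libraries and 8943 and 9095 in the treated ones.

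**Figure D1:**
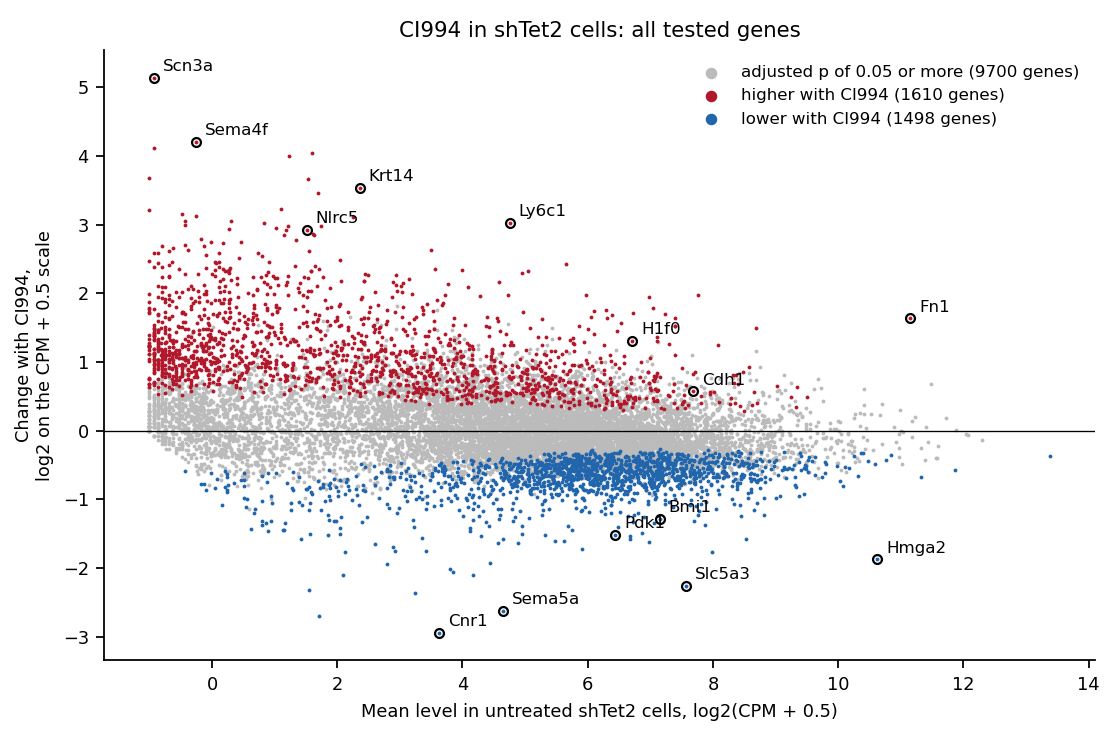
Change with CI994 (log2, y axis) of each of the 12808 tested genes against its mean level in untreated shTet2 cells (log2(CPM + 0.5), x axis), with called genes in red (higher) and blue (lower) and named examples ringed. The called rises spread to the low-level side with log2 changes up to 5.13 (Scn3a), and the called falls lie mostly at middle and high levels and reach -2.94 (Cnr1).

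The change also moved with the base composition of the transcripts. Genes were ordered by the GC content of their transcript and split into 10 equal bins: the median log2 change was -0.40 in the bin of lowest GC and 0.53 in the bin of highest GC. Median GC was 52.3% among called rises, 45.3% among called falls and 49.8% among genes not called. The same bins gave medians from -0.57 to 0.80 for CI994 in shControl cells and from -0.09 to 0.35 in shMbd3 cells. With each library's trend along GC removed, 1956 genes were higher and 2198 lower. Leaving out 1 of the 4 libraries lowered the number of calls, since the group then rests on 1 library that is assumed to vary like the others: 1168 without untreated replicate 1, 1086 without untreated replicate 2, 922 without treated replicate 1 and 1378 without treated replicate 2. All 3108 genes kept their direction in those 4 fits, and 596 rises and 219 falls passed in all of them.

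The rises of largest size among genes at 5 CPM or more with CI994 included ion channels and transporters that the untreated cells barely expressed. Scn3a, a voltage-gated sodium channel of neurons, (chr2:65457118-65567591, GRCm38.p6) was at 0.0472 and 0 CPM untreated and 21.4 and 15.2 CPM with CI994 (log2 change 5.13 ± 0.20 (SE), adjusted p = 5.00e-06). The untreated pair held 1 read and the treated pair 846, a ratio of 758 with an exact 95% counting interval of 136 to 29982, which covers counting error only. Slc6a13, a GABA transporter, was at 0 and 0.0498 CPM untreated and 12.4 and 5.95 CPM with CI994. Atp2b4, a plasma membrane calcium pump, was at 2.50 and 2.29 CPM untreated and 43.02 and 32.95 CPM with CI994 (log2 change 3.66 ± 0.24 (SE), adjusted p = 5.76e-05). The choice of these rises required both treated libraries to lie above both untreated ones.

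Sema4f, a transmembrane semaphorin, was at 0.283 and 0.399 CPM untreated and 18.2 and 12.8 CPM with CI994 (log2 change 4.20 ± 0.24 (SE), adjusted p = 4.34e-05). C1s1, a serine protease of the complement pathway, was at 3.21 and 1.84 CPM untreated and 62.4 and 40.1 CPM with CI994. Slpi, a secreted inhibitor of leukocyte proteases, was at 2.79 and 2.69 CPM untreated and 40.1 and 33.4 CPM with CI994 (log2 change 3.46 ± 0.20 (SE), adjusted p = 4.34e-05). Heg1, a membrane protein of cell junctions, rose by 3.11 log2 units. Krt14, the keratin of basal epithelium, was at 4.20 and 5.08 CPM untreated and 71.4 and 52.6 CPM with CI994 (log2 change 3.53 ± 0.41 (SE), adjusted p = 6.39e-04). Ms4a4d had no read in either untreated library and was at 8.32 and 4.16 CPM with CI994, at least 86.6-fold higher when the untreated pair is set to a floor of 3 reads in all. Cyp21a1, a steroid hydroxylase, rose by 3.12, and the long noncoding RNA U90926 was at 1.98 and 1.69 CPM untreated and 37.9 and 38.5 CPM with CI994 (log2 change 3.995 ± 0.16 (SE), adjusted p = 5.00e-06). H2-Q5, annotated as a transcribed pseudogene of MHC class I, rose by 3.23. Ly6c1, a surface protein anchored by a lipid, was at 26.9 and 25.9 CPM untreated and 257 and 203 CPM with CI994 (log2 change 3.02 ± 0.14 (SE), adjusted p = 1.44e-05). C1s1, Ly6c1, Cyp21a1 and the H2-Q genes have near-identical copies, and the way reads were assigned among copies is not given in the sources used here.

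**Figure D2:**
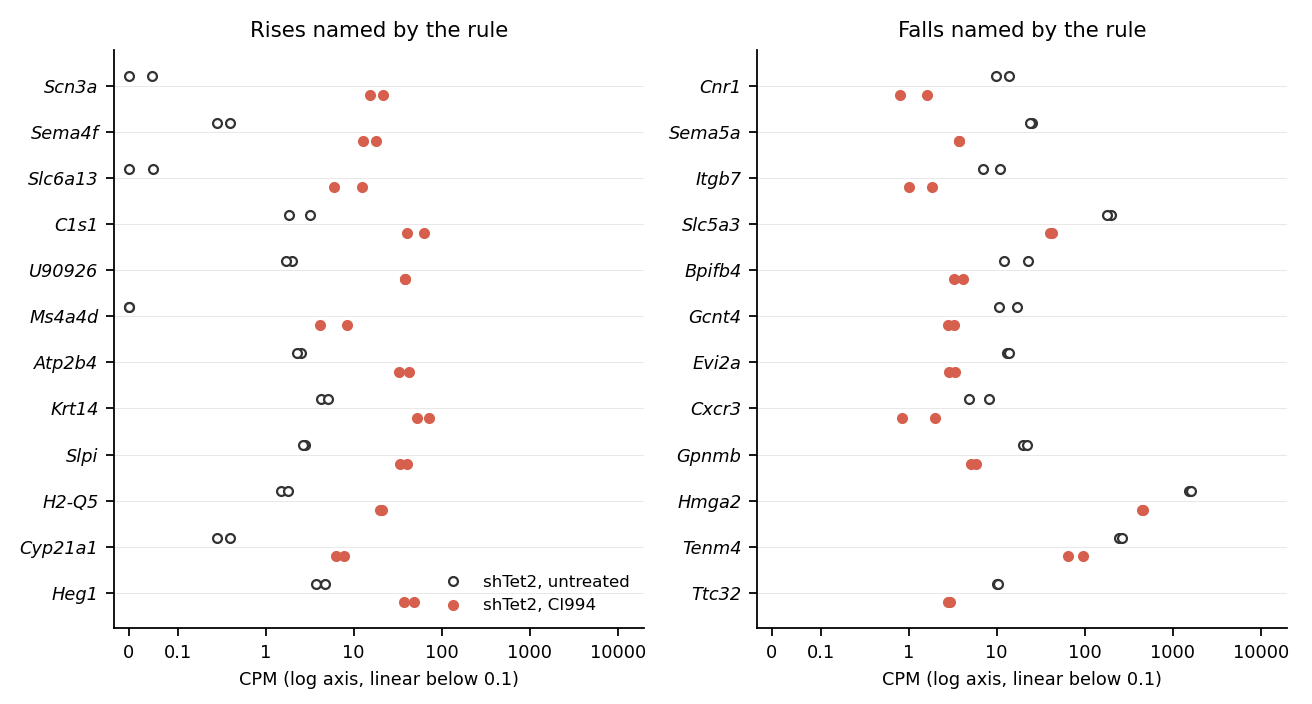
CPM (x axis, log scale that is linear below 0.1) in each of the 4 shTet2 libraries for the 12 rises (left) and 12 falls (right) that the naming rule picks, open circles untreated and filled circles with CI994. The rule takes only genes in which the 2 treated libraries lie on one side of the 2 untreated ones, so that separation was set by the choice. Values run from Scn3a at 0 and 0.0472 against 15.2 and 21.4 CPM to Hmga2 at 1532 and 1618 against 441 and 462 CPM.

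The falls of largest size took in receptors, guidance molecules and an architectural chromatin protein. Cnr1, the cannabinoid receptor of the brain, was at 9.78 and 13.9 CPM untreated and 0.803 and 1.61 CPM with CI994 (log2 change -2.94 ± 0.35 (SE), adjusted p = 7.86e-04). Sema5a, a semaphorin of axon guidance, was at 25.2 and 23.7 CPM untreated and 3.76 and 3.71 CPM with CI994 (log2 change -2.62 ± 0.22 (SE), adjusted p = 2.21e-04). Slc5a3, the sodium-coupled myo-inositol transporter, was at 200.5 and 180.2 CPM untreated and 39.8 and 42.5 CPM with CI994 (log2 change -2.26 ± 0.17 (SE), adjusted p = 1.13e-04), and its gene overlaps another. The choice of these falls likewise required both treated libraries to lie below both untreated ones.

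Hmga2, a DNA-bending chromatin protein linked to mesenchymal and oncofetal states, was the most abundant of the large falls. It was at 1532 and 1618 CPM untreated and 441 and 462 CPM with CI994 (log2 change -1.87 ± 0.12 (SE), adjusted p = 5.25e-05). Gpnmb, a transmembrane glycoprotein, fell by 1.93 on the log2 scale, and Tenm4, a teneurin adhesion receptor, was at 242 and 264 CPM untreated and 63.6 and 95.01 CPM with CI994. Itgb7, an integrin beta chain, fell by 2.36, Bpifb4 by 2.10, the glycosyltransferase gene Gcnt4 by 2.06, Evi2a by 2.01 and Ttc32 by 1.74. Cxcr3, a chemokine receptor, was at 4.86 and 8.07 CPM untreated and 0.845 and 2.01 CPM with CI994 (log2 change -1.95 ± 0.46 (SE), adjusted p = 0.0174), and in the fits that leave out 1 of the 4 libraries its highest adjusted p was 0.138. The other 11 falls and all 12 rises named here passed in each of those 4 fits.

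Gene lists for pathways and cell types were then read against the share of all tested genes. They are described by counts and medians, and no list was tested as a set. The median log2 change of all tested genes was 0.01. The fit without the untreated shControl library that stood apart called 3737 genes higher and 3631 lower among all 12808 tested. Its counts for each list are to be read against those larger shares. In all 210 called genes that the naming rule picks, the treated libraries lay on one side of the untreated ones. So they did in 5744 tested genes as rises and in 4432 as falls, so separation alone does not set a gene apart. Of the 210, 101 passed in all 4 fits that leave out a shTet2 library. Among the called genes given by library in the text that follows, Cdh2, Llgl2, Ephb6, Ltbp4, Lama3, Ect2, Ccna2, Cbx5, Ep300, Egr1 and Lipe passed in none of those 4.

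**Figure D3:**
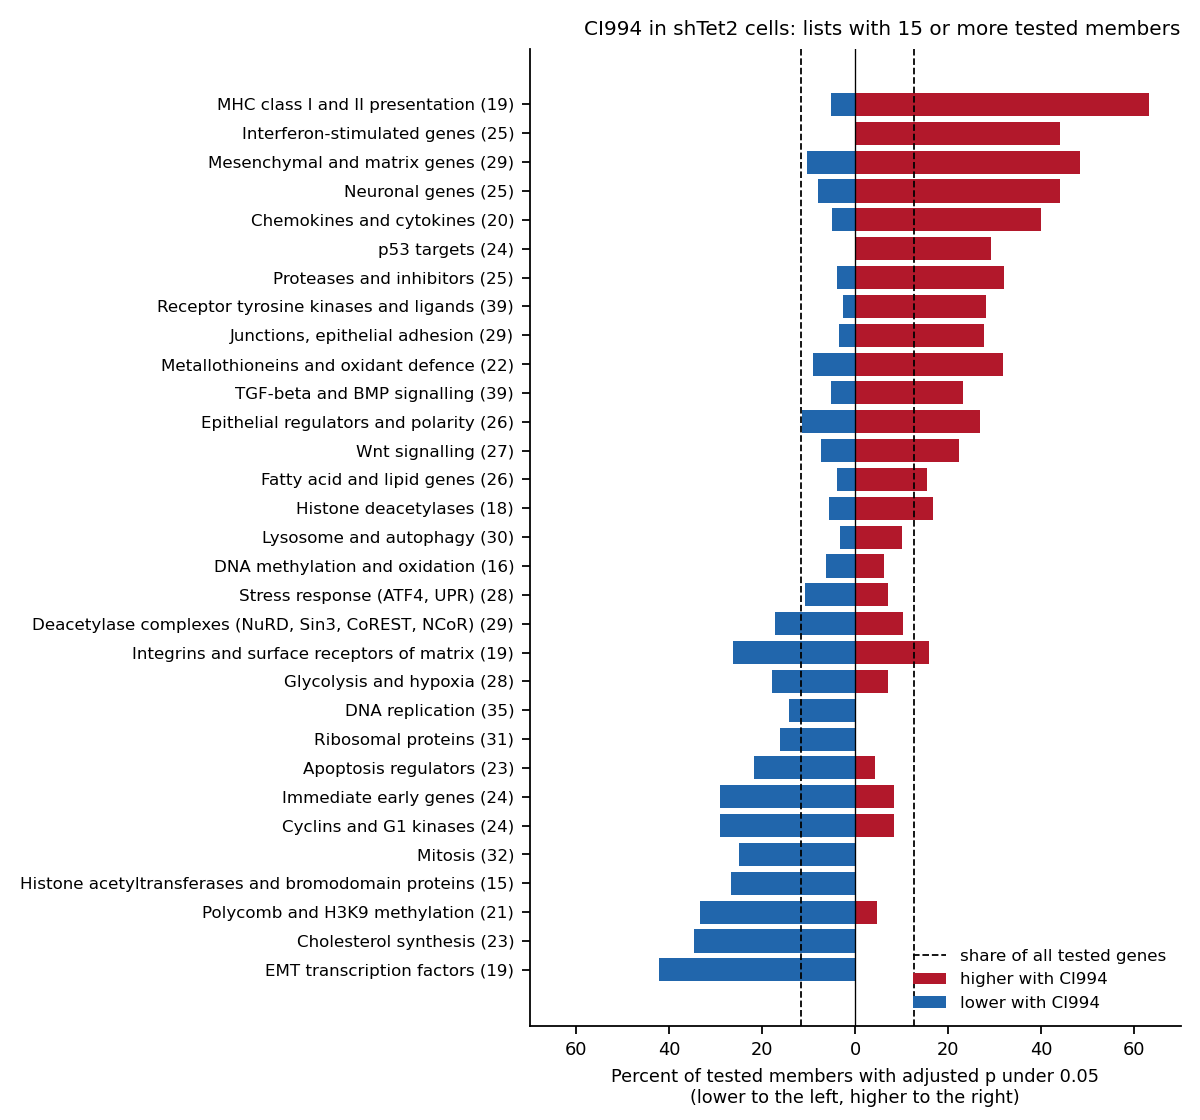
Percent of the tested members of each list called higher (red, to the right) or lower (blue, to the left) with CI994 in shTet2 cells, for lists with 15 or more tested members, whose number stands in brackets. The dashed lines mark the shares of all tested genes, 12.6% higher and 11.7% lower, and MHC presentation (12 higher and 1 lower of 19) and the EMT transcription factors (0 higher and 8 lower of 19) stand at the ends.

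Genes of antigen presentation rose in part. MHC class I molecules carry peptides from inside the cell to the surface, Tap1 and Tap2 pump those peptides into the endoplasmic reticulum, and Nlrc5 is the transactivator of class I genes. Of 19 tested members of the list 12 were higher and 1 lower, against 15 and 2 in the 11-library fit and 11 and 1 with the GC trend removed, and the median log2 change was 1.19. Of those calls 8 rises and the fall passed in all 4 fits that leave out a library. Nlrc5 was at 2.08 and 2.64 CPM untreated and 24.4 and 19.9 CPM with CI994 (log2 change 2.93 ± 0.18 (SE), adjusted p = 5.25e-05). Tap1 was at 2.65 and 1.59 CPM untreated and 11.9 and 8.94 CPM with CI994 (log2 change 2.02 ± 0.23 (SE), adjusted p = 5.86e-04) and Tap2 rose by 2.11. The class I gene H2-Q4 was at 9.07 and 7.57 CPM untreated and 43.1 and 40.9 CPM with CI994 (log2 change 2.21 ± 0.21 (SE), adjusted p = 2.86e-04). Every treated library stood above both untreated ones in these genes, as in 5744 of all 12808 tested genes. The exception in direction was Erap1, the peptidase that trims peptides for class I, at 59.6 and 57.7 CPM untreated and 28.4 and 26.1 CPM with CI994 (log2 change -1.16 ± 0.19 (SE), adjusted p = 0.00355).

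The classical class I heavy chains H2-K1 and H2-D1, named here outside the rule after their values were seen, were the abundant members. H2-D1 was at 123 and 127 CPM untreated and 551 and 464 CPM with CI994 (log2 change 1.94, adjusted p = 2.93e-04) and H2-K1 at 107 and 102 CPM untreated and 397 and 329.6 CPM with CI994 (log2 change 1.71, adjusted p = 2.22e-04). Their shared light chain B2m, at 438 and 403 CPM untreated and 668 and 544 CPM with CI994, did not pass (log2 change 0.45, adjusted p = 0.0697) but passed in the 11-library fit. Reads of class I genes can be split among near-identical copies.

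The 200 bases upstream of the starts of H2-K1, H2-D1 and B2m are printed because H2-K1 and H2-D1 encode alternative heavy chains that each pair with B2m, and both heavy chain genes rose; RefSeq-derived sequence of build GRCm38.p6 is used, 5′ to 3′ on the gene's own strand. For H2-K1 one of its 2 listed starts is shown (chr17:34000334-34000533, minus strand), for H2-D1 chr17:35262894-35263093 on the plus strand, and for B2m chr2:122147487-122147686 on the plus strand. Capitals mark the CCAAT box, searched as CCAAT on both strands, and the interferon response element, searched on both strands as GAAA, any 2 bases and GAAA again. These motifs do not overlap one another in the windows shown.
H2-K1: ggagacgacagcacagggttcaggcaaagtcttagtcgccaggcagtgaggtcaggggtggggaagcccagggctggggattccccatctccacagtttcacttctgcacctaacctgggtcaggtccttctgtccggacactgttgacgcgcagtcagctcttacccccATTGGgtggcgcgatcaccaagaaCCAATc
H2-D1: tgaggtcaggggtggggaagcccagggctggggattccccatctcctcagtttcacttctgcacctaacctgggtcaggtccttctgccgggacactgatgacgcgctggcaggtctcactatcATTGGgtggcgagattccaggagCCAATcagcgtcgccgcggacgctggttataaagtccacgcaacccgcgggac
B2m: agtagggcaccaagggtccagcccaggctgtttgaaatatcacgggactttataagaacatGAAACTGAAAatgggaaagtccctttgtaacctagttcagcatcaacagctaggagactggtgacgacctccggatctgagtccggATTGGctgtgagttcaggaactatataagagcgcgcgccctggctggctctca
The H2-K1 window at the other listed start (chr17:34000348-34000547) held 1 CCAAT box and no interferon response element. The H2-K1 and H2-D1 windows shown each held 2 CCAAT boxes and no interferon response element by this search, and the B2m window held 1 of each. Of 32851 promoter windows of the same length, 29.3% held a CCAAT box and 2.27% the interferon response element. A match in these letters is a description of the sequence and not a measured site. The search takes exact matches only, so a window without one may still hold a variant of the element.

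Class II genes, which present peptides from outside the cell in professional antigen-presenting cells, stayed at trace levels. H2-Aa, H2-Ab1 and H2-Eb1 were under the filter and at 0 to 0.634 CPM in the 4 libraries. Their transactivator Ciita was at 0 to 0.149 CPM.

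Interferon-stimulated genes, which encode antiviral effectors and sensors, rose in part. Of 25 tested members 11 were higher and 0 lower, against 15 and 1 in the 11-library fit, and the median log2 change was 0.58. Bst2, which tethers budding virus, was at 7.60 and 6.77 CPM untreated and 40.9 and 35.7 CPM with CI994 (log2 change 2.27 ± 0.18 (SE), adjusted p = 1.59e-04). Isg15, a ubiquitin-like modifier, was at 0.472 and 0.249 CPM untreated and 3.68 and 3.85 CPM with CI994 (log2 change 2.29 ± 0.32 (SE), adjusted p = 0.00144). Oas3 rose by 1.73 and Usp18 by 1.24, both from under 0.5 CPM. Most of these rises ended at a few CPM, and not all members passed: Ifit2 was at 46.7 and 42.9 CPM untreated and 45.98 and 49.8 CPM with CI994.

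Among cytokine and chemokine genes, of 20 tested members 8 were higher and 1 lower (10 and 3 in the 11-library fit). Ccl2, which attracts monocytes, was at 1.98 and 1.10 CPM untreated and 17.7 and 13.5 CPM with CI994 (log2 change 2.95 ± 0.28 (SE), adjusted p = 2.93e-04), and its neighbour Ccl7 rose by 2.02. Il1rn, the antagonist of the interleukin-1 receptor, was at 0.189 and 0.299 CPM untreated and 6.59 and 5.01 CPM with CI994 (log2 change 3.05 ± 0.28 (SE), adjusted p = 2.86e-04), and Il1a, an agonist of that receptor, was at 1.04 and 1.74 CPM untreated and 8.03 and 7.42 CPM with CI994 (log2 change 2.09 ± 0.24 (SE), adjusted p = 6.67e-04). Both libraries with CI994 stood above both without it in each, as in 5744 of all 12808 tested genes. Tnfsf9, a costimulatory ligand, fell by 0.62.

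Epithelial adhesion genes rose in part, from a state in which E-cadherin was already present. Cdh1, encoding E-cadherin, was at 202 and 207 CPM untreated and 319 and 320.5 CPM with CI994 (log2 change 0.57 ± 0.16 (SE), adjusted p = 0.0297), a ratio of means of 1.56. The untreated shControl libraries held 16.3 and 25.7 CPM and the untreated shMbd3 libraries 169.7 and 202 CPM. Cdh1 passed in none of the 4 fits that leave out a shTet2 library, with an adjusted p of up to 0.139. Epcam, another epithelial adhesion molecule, was at 179 and 193 CPM untreated and 197 and 203 CPM with CI994 and did not pass (log2 change 0.04 ± 0.11, adjusted p = 0.813).

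Of 29 tested junction genes 8 were higher and 1 lower (18 and 2 in the 11-library fit; 7 and 3 with the GC trend removed). Dsg2, a desmosomal cadherin, was at 1.70 and 1.74 CPM untreated and 19.9 and 13.1 CPM with CI994 (log2 change 2.85 ± 0.23 (SE), adjusted p = 1.59e-04). Cldn1, a claudin of tight junctions, was at 12.04 and 14.2 CPM untreated and 51.8 and 74.8 CPM with CI994 (log2 change 2.14 ± 0.20 (SE), adjusted p = 2.80e-04). The tight junction protein gene Ocln rose by 1.07 and the desmosomal plakophilin gene Pkp1 by 0.60. Gja1, the gap junction protein connexin 43, went the other way, at 443 and 388 CPM untreated and 211 and 207 CPM with CI994 (log2 change -1.05 ± 0.16 (SE), adjusted p = 0.00226). The median of the list was 0.24.

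Among 26 tested epithelial regulators and polarity genes 7 were higher and 3 lower (13 and 4 in the 11-library fit). Cdc42ep5, an effector of the GTPase Cdc42, rose by 2.27. Llgl2, a polarity protein, was at 7.79 and 9.81 CPM untreated and 25.1 and 27.8 CPM with CI994 (log2 change 1.48 ± 0.45 (SE), adjusted p = 0.0430), and the collagen receptor kinase gene Ddr1 rose by 1.41. The 3 falls were the transcription factors Klf4 (-0.71) and Grhl2 (-0.43) and the polarity scaffold Patj (-0.39). Of 8 tested keratins 3 were higher and 0 lower (5 and 0 in the 11-library fit), among them Krt14 and Krt16, while Krt8 and Krt18 had log2 changes of 0.25 and 0.06 and did not pass.

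Mesenchymal and matrix genes rose in part. Of 29 tested 14 were higher and 3 lower, against 17 and 6 in the 11-library fit and 11 and 6 with the GC trend removed, and 6 of the rises and 0 of the falls passed in all 4 fits that leave out a library. Fn1, fibronectin, was at 2232 and 2326 CPM untreated and 8023 and 6858 CPM with CI994 (log2 change 1.63 ± 0.19 (SE), adjusted p = 6.80e-04), a ratio of means of 3.27 at one of the highest levels in these cells. Col12a1, a fibril-associated collagen, was at 26.8 and 20.3 CPM untreated and 139.6 and 88.97 CPM with CI994 (log2 change 2.17 ± 0.25 (SE), adjusted p = 6.14e-04). Cdh2, N-cadherin, was at 329.5 and 325 CPM untreated and 438 and 469.6 CPM with CI994 (log2 change 0.40 ± 0.10 (SE), adjusted p = 0.0170). In all 3 the treated and untreated libraries were fully apart, as in all 210 called genes that the naming rule picks.

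Several fibrillar and basement membrane genes rose from near 0. Col6a1 rose by 2.20 and the laminin gene Lama4 by 2.10, and Col1a1 was at 0.0472 and 0.199 CPM untreated and 2.03 and 1.92 CPM with CI994. Vim, encoding the intermediate filament vimentin, was at 322 and 351 CPM untreated and 416 and 422 CPM with CI994 and did not pass (log2 change 0.25, adjusted p = 0.114) but passed in the 11-library fit. The falls included the laminin chain gene Lama3 (291 and 305 CPM untreated and 207 and 189 CPM with CI994) and S100a4, a calcium-binding protein of motile cells (log2 change -0.42).

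The transcription factors that drive the transition to the mesenchymal state were read next. Of 19 tested 0 were higher and 8 lower, against 4 and 9 in the 11-library fit and 2 and 8 with the GC trend removed, and the median was -0.28. Hmga2, described above, fell most. Prrx1, a homeobox factor, was at 19.98 and 19.3 CPM untreated and 9.04 and 8.81 CPM with CI994 (log2 change -1.16 ± 0.18 (SE), adjusted p = 0.00256). Sox9 was at 37.3 and 51.4 CPM untreated and 26.03 and 27.9 CPM with CI994, with a log2 change of -0.76. Hmga2 and Prrx1 passed in all 4 fits that leave out a library, and the other 6 did not. Zeb1, a direct repressor of Cdh1, was at 18.4 and 17.3 CPM untreated and 15.8 and 14.7 CPM with CI994 and did not pass (log2 change -0.28 ± 0.13 (SE), adjusted p = 0.135). Snai1, another repressor of Cdh1, was at 6.38 and 7.67 CPM untreated and 13.3 and 14.2 CPM with CI994, with a positive change that did not pass in the 12-library fit (log2 change 0.86 ± 0.33 (SE), adjusted p = 0.0881) and passed in the 11-library fit.

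**Figure D4:**
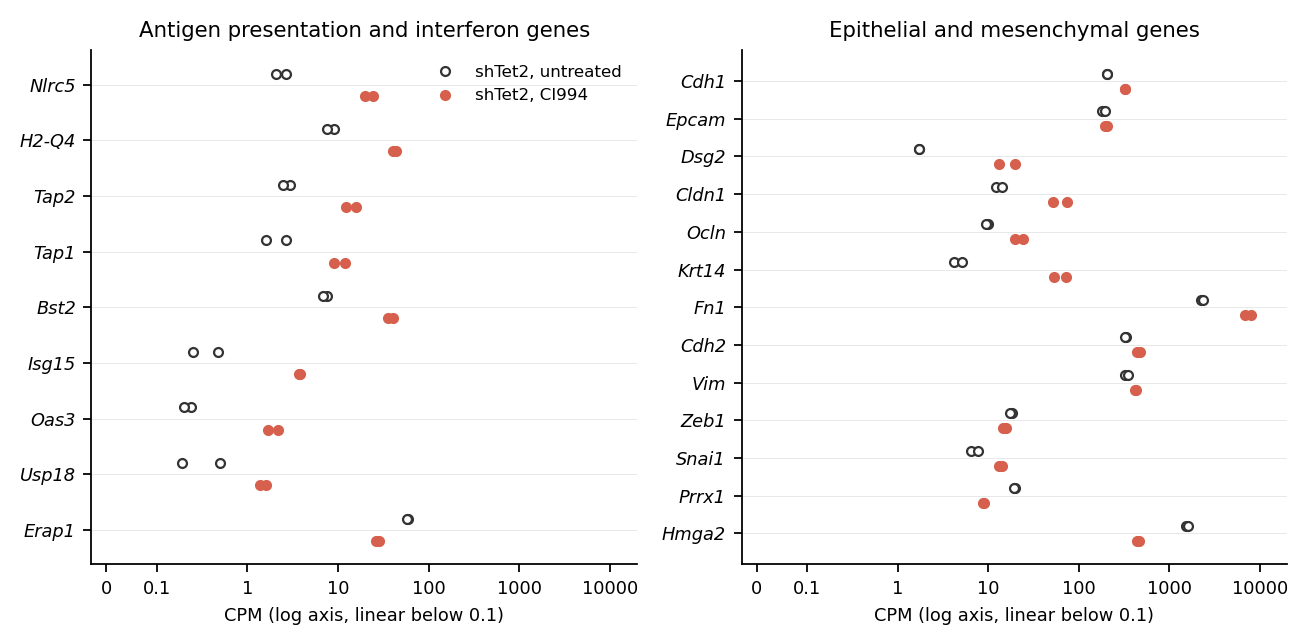
CPM (x axis, log scale that is linear below 0.1) in each of the 4 shTet2 libraries, open circles untreated and filled circles with CI994, for antigen presentation and interferon genes (left) and for epithelial and mesenchymal genes (right). Erap1, Zeb1, Prrx1 and Hmga2 lie lower with CI994, though Zeb1 did not pass, and Dsg2, Cldn1, Krt14 and Fn1 lie clearly higher.

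Integrins, the receptors for matrix, split. Of 19 tested 3 were higher and 5 lower (7 and 6 in the 11-library fit). Itgb5 was at 130.1 and 144 CPM untreated and 382 and 361 CPM with CI994 (log2 change 1.37 ± 0.19 (SE), adjusted p = 0.00153) and Itgb3 at 1.09 and 1.99 CPM untreated and 7.44 and 6.30 CPM with CI994 (log2 change 1.83 ± 0.23 (SE), adjusted p = 0.00102), both beta chains that pair with the alpha V chain. Itgb7, Itga8, Itga10 and Itga2 fell by 2.36, 1.45, 1.41 and 0.84 on the log2 scale.

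Extracellular proteases and their inhibitors rose more often than they fell, 8 against 1 of 25 tested (11 and 3 in the 11-library fit). Plat, tissue plasminogen activator, was at 1.94 and 1.59 CPM untreated and 18.6 and 16.1 CPM with CI994 (log2 change 2.92 ± 0.16 (SE), adjusted p = 4.34e-05). Mmp13, a collagenase, was at 58.2 and 74.01 CPM untreated and 199 and 239.5 CPM with CI994 (log2 change 1.66 ± 0.21 (SE), adjusted p = 0.00110). Mmp24 rose by 1.81 and Adamts4 by 1.92, and Mmp9, a gelatinase, fell by 0.62.

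Of 39 tested receptor tyrosine kinases and ligands 11 were higher and 1 lower (19 and 7 in the 11-library fit). Epha1, an ephrin receptor, was at 30.9 and 30.2 CPM untreated and 162 and 156 CPM with CI994 (log2 change 2.29 ± 0.13 (SE), adjusted p = 4.34e-05). Ephb6, a receptor of the same family, was at 4.30 and 5.93 CPM untreated and 28.6 and 26.5 CPM with CI994 (log2 change 2.27 ± 0.53 (SE), adjusted p = 0.0159). Among ligands Pdgfb rose by 1.72 and Btc by 1.58, and Tgfa, a ligand of the EGF receptor, fell by 0.64.

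Of 39 tested genes of TGF-beta and BMP signalling 9 were higher and 2 lower (14 and 9 in the 11-library fit; 8 and 8 with the GC trend removed), around a median of 0.01. Ltbp4, a binding protein of latent TGF-beta, was at 0.567 and 0.797 CPM untreated and 5.79 and 5.41 CPM with CI994 (log2 change 2.33 ± 0.59 (SE), adjusted p = 0.0214). Ccn2 and Id1, targets of these pathways, passed in all 4 fits that leave out a library. Ccn2 was at 149 and 150.1 CPM untreated and 470 and 559 CPM with CI994 (log2 change 1.70 ± 0.16 (SE), adjusted p = 2.93e-04), and Id1 at 10.01 and 9.66 CPM untreated and 33.4 and 35.95 CPM with CI994 (log2 change 1.70 ± 0.16 (SE), adjusted p = 2.93e-04). Grem1, a secreted BMP antagonist, was at 2.60 and 4.88 CPM untreated and 0.338 and 0.671 CPM with CI994 (log2 change -2.10 ± 0.37 (SE), adjusted p = 0.00495).

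In Wnt signalling 6 of 27 tested genes were higher and 2 lower (11 and 5 in the 11-library fit). The ligand gene Wnt10a was at 3.45 and 2.69 CPM untreated and 13.02 and 11.6 CPM with CI994 (log2 change 1.79 ± 0.19 (SE), adjusted p = 4.42e-04), the receptor gene Fzd2 rose by 1.35 and the antagonist gene Sfrp1 by 1.15. Lgr6, an R-spondin receptor of epithelial stem cells, was at 24.3 and 22.3 CPM untreated and 7.78 and 7.33 CPM with CI994 (log2 change -1.63 ± 0.23 (SE), adjusted p = 0.00154), and the nuclear effector gene Tcf7l2 fell by 0.90. In Notch signalling 3 of 14 were higher and 1 lower (7 and 2 in the 11-library fit; 1 and 2 with the GC trend removed), with the target Hey1 up by 1.80 and the target Hes1 down by 0.62.

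Genes with neuronal functions, many of which are held silent outside neurons by the repressor REST with CoREST and deacetylases, rose in part. Of 56 listed genes 25 were tested, and 11 of these were higher and 2 lower (15 and 2 in the 11-library fit). Stmn2, a microtubule regulator of growing axons, was at 0 and 0.0498 CPM untreated and 3.21 and 2.23 CPM with CI994; the untreated pair held 1 read and the treated pair 126. Mapt, the microtubule protein tau, was at 1.27 and 1.20 CPM untreated and 11.5 and 8.58 CPM with CI994 (log2 change 2.54 ± 0.25 (SE), adjusted p = 3.40e-04), and Dpysl5 rose by 2.03. The other 31 listed genes did not pass the filter, and 13 of the 56 had no read in any of the 4 libraries. Stmn2 held 0 to 2 reads in each untreated library of the 3 lines, so it passed the filter only through treated ones. Such members could be called mainly as rises. The synaptic vesicle genes Rab3b and Vamp2 fell by 1.45 and 0.39.

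Some cell cycle genes fell, by less than 1 log2 unit. Of 32 tested mitosis genes 0 were higher and 8 lower (0 and 18 in the 11-library fit), with a median of -0.35. Ect2, which directs cytokinesis, was at 294 and 299 CPM untreated and 199.6 and 201 CPM with CI994 (log2 change -0.64 ± 0.14 (SE), adjusted p = 0.0119), and Kif23, a kinesin of the midbody, fell by 0.49. Of 35 tested replication genes 0 were higher and 5 lower (5 and 20 in the 11-library fit; 0 and 10 with the GC trend removed). In the main fit their share of falls, 14.3%, was close to that of all tested genes, 11.7%. In the 11-library fit, where 3631 of 12808 tested genes were lower, the share of the list was above that of all genes. The same held with the GC trend removed (2198 of 12808 lower). The falls in the main fit included the helicase subunit genes Mcm4 (-0.45) and Mcm6 (-0.36). None of the mitosis or replication falls passed in all 4 fits that leave out a library.

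Of 24 tested cyclins and regulators of the G1 phase 2 were higher and 7 lower (5 and 11 in the 11-library fit). Ccna2, the cyclin of S phase, was at 486 and 471 CPM untreated and 317 and 302 CPM with CI994 (log2 change -0.70 ± 0.15 (SE), adjusted p = 0.0116), and Ccnb1, the mitotic cyclin, was at 135 and 147 CPM untreated and 88.4 and 94.6 CPM with CI994 (log2 change -0.69 ± 0.11 (SE), adjusted p = 0.00346). E2f8, a repressor of the E2F family, fell by 0.79. Mycl rose from 1 read in the untreated pair to 49 in the treated pair. Cdkn1a, the CDK inhibitor p21 and a frequent responder to deacetylase inhibitors, was at 168 and 138 CPM untreated and 210.5 and 199.7 CPM with CI994, a change that did not pass (log2 change 0.36 ± 0.12 (SE), adjusted p = 0.0603) and passed in the 11-library fit. Among 5 tested CDK inhibitors 1 was higher (2 in the 11-library fit), Cdkn2d at 15.96 and 16.2 CPM untreated and 28.2 and 27.5 CPM with CI994 (log2 change 0.70 ± 0.14 (SE), adjusted p = 0.00713), which did not pass once the GC trend was removed.

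Of 24 tested p53 targets 7 were higher and 0 lower (10 and 2 in the 11-library fit), and none of the 7 passed in all 4 fits that leave out a library. Plk2, a polo-like kinase, was at 176 and 161 CPM untreated and 497 and 519 CPM with CI994 (log2 change 1.52 ± 0.30 (SE), adjusted p = 0.00763), the death receptor gene Fas at 2.50 and 2.24 CPM untreated and 10.9 and 5.95 CPM with CI994 (log2 change 1.52 ± 0.42 (SE), adjusted p = 0.0311), and the antiproliferative gene Btg2 rose by 1.17. Of 23 tested apoptosis regulators 1 was higher and 5 lower (7 and 8 in the 11-library fit). The rise was Pmaip1, the BH3-only protein Noxa, at 6.52 and 4.68 CPM untreated and 13.1 and 12.9 CPM with CI994 (log2 change 1.10 ± 0.22 (SE), adjusted p = 0.00897). Falls included the inhibitors of caspases Xiap (-0.92) and Cflar (-0.85).

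The class I deacetylase genes Hdac1, Hdac2, Hdac3 and Hdac8 did not pass in the 12-library fit. Hdac1 was at 82.03 and 80.2 CPM untreated and 100 and 95.4 CPM with CI994, Hdac2 at 273 and 226 CPM untreated and 200.4 and 188 CPM with CI994, and Hdac3 and Hdac8 had log2 changes of -0.06 ± 0.09 and -0.20 ± 0.13. In the 11-library fit Hdac1 passed as higher and Hdac2 as lower. Of 18 tested deacetylases 3 were higher and 1 lower (11 and 3 in the 11-library fit), 22.2% called in the 12-library fit against 24.3% of all tested genes. Hdac11, the class IV enzyme, was at 4.72 and 4.68 CPM untreated and 18.3 and 14.4 CPM with CI994 (log2 change 1.62 ± 0.23 (SE), adjusted p = 0.00165), and the NAD-dependent enzyme gene Sirt1 at 61.4 and 67.1 CPM untreated and 27.3 and 31.6 CPM with CI994 (log2 change -1.18 ± 0.19 (SE), adjusted p = 0.00324). Both separated treated from untreated libraries completely, in opposite directions, as did all 210 called genes that the naming rule picks in their own direction.

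H1f0, the linker histone of resting cells and a classical responder to deacetylase inhibition, was at 98.5 and 110 CPM untreated and 253 and 292 CPM with CI994 (log2 change 1.31 ± 0.17 (SE), adjusted p = 0.00119). It was the 1 call among 9 tested replacement and linker histones (3 higher and 0 lower in the 11-library fit). Mbd3, the NuRD subunit, was at 56.9 and 66.3 CPM untreated and 82.2 and 86.3 CPM with CI994, with a log2 change of 0.38 ± 0.81 (SE) that did not pass in the 12-library fit, passed in the 11-library fit, and was -0.30 with the GC trend removed.

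Of 29 tested subunits of the deacetylase complexes 3 were higher and 5 lower (10 and 10 in the 11-library fit). In the main fit 27.6% of the list was called, close to the 24.3% of all tested genes. The 11-library fit called 3737 higher and 3631 lower among all 12808 tested genes. The genes named next are therefore single examples and do not set the list apart. Sap18, of the Sin3 complex, was at 17.9 and 16.9 CPM untreated and 36.3 and 39.8 CPM with CI994 (log2 change 1.04 ± 0.12 (SE), adjusted p = 6.66e-04), the corepressor gene Rcor2 rose by 0.99, and its relatives Rcor3 and Rcor1 and the corepressor Ncor1 fell by 0.66, 0.43 and 0.53. Among 21 tested polycomb and H3K9 methylation genes 1 was higher and 7 lower (7 and 10 in the 11-library fit). Bmi1, a core subunit of polycomb repressive complex 1, was at 136 and 147 CPM untreated and 54.6 and 66.8 CPM with CI994 (log2 change -1.29 ± 0.15 (SE), adjusted p = 6.67e-04). Cbx7, another subunit of such complexes, rose by 0.75, and Cbx5, the heterochromatin protein HP1 alpha, was at 899 and 817 CPM untreated and 567 and 556 CPM with CI994 with a log2 change of -0.68.

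Of 15 tested acetyltransferases and bromodomain proteins 0 were higher and 4 lower (1 and 8 in the 11-library fit), all by less than 1 log2 unit. Ep300, the acetyltransferase p300, was at 175 and 169 CPM untreated and 134 and 144 CPM with CI994 (log2 change -0.38 ± 0.09 (SE), adjusted p = 0.0200). Of 16 tested genes of DNA methylation and its oxidation 2 were higher and 5 lower in the 11-library fit, and likewise with the GC trend removed. In both, the share of falls was not below that of all tested genes (3631 and 2198 of 12808). In the 12-library fit 1 was higher and 1 lower, 12.5% called against 24.3% of all tested genes. The rise was the de novo methyltransferase gene Dnmt3a, at 17 and 17.8 CPM untreated and 31.4 and 29.6 CPM with CI994 (log2 change 0.73 ± 0.13 (SE), adjusted p = 0.00525), and the fall Idh1, the isocitrate dehydrogenase that supplies the cofactor of Tet enzymes, at 174 and 197 CPM untreated and 125 and 135 CPM with CI994 (log2 change -0.58 ± 0.13 (SE), adjusted p = 0.0157).

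In cholesterol synthesis 0 of 23 tested genes were higher and 8 lower (4 and 13 in the 11-library fit), with a median of -0.30. Idi1, which isomerises the isoprenoid unit, was at 88.5 and 94.1 CPM untreated and 37.7 and 46.1 CPM with CI994 (log2 change -1.19 ± 0.15 (SE), adjusted p = 8.37e-04). Cyp51, Msmo1 and Nsdhl, which act on the sterol ring after lanosterol, fell by 0.80, 0.77 and 0.71, and these 4 passed in all 4 fits that leave out a library. In glycolysis and the response to hypoxia 2 of 28 were higher and 5 lower (6 and 8 in the 11-library fit). Pdk1, a kinase that inhibits pyruvate dehydrogenase, was at 89.3 and 83.1 CPM untreated and 35.2 and 27.8 CPM with CI994 (log2 change -1.51 ± 0.14 (SE), adjusted p = 2.71e-04). Bnip3, a mitophagy receptor induced by hypoxia, fell by 1.33 and the glycolytic enzyme gene Pgk1 by 0.65, while Pfkp, phosphofructokinase, was at 85.4 and 79.3 CPM untreated and 143 and 121 CPM with CI994 (log2 change 0.60 ± 0.14 (SE), adjusted p = 0.0174).

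Of 24 tested immediate early genes 2 were higher and 7 lower (1 and 10 with the GC trend removed). The 11-library fit called 9 higher and 7 lower, and the median log2 change was 0.06, so the balance of calls turned with the fit. Egr1, a zinc finger factor induced by growth factors, was at 16.5 and 16.6 CPM untreated and 7.86 and 7.64 CPM with CI994 (log2 change -1.11 ± 0.24 (SE), adjusted p = 0.0115). Egr2 fell by 1.30, Fosb by 1.03 and Fosl1 by 0.78. The AP-1 genes Fos and Jund were higher by 0.99 and 0.92 and did not pass once the GC trend was removed.

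Markers of other cell types were checked, since several risen genes are known from blood or stroma. In these bulk libraries a change in the number of cells of a type and a change in RNA per cell cannot be told apart. Of 16 haematopoietic markers 5 were tested and 4 of them were higher (4 in the 11-library fit), and the summed level of the list was 5.78 and 5.998 CPM untreated and 30.1 and 32.0 CPM with CI994. Cd68, a lysosomal protein of macrophages, was at 3.12 and 2.69 CPM untreated and 15.8 and 16.6 CPM with CI994 (log2 change 2.24 ± 0.23 (SE), adjusted p = 3.89e-04). Lyz2, lysozyme, was at 0.142 and 0.0996 CPM untreated and 4.56 and 2.41 CPM with CI994, S100a8 at 1.84 and 2.14 CPM untreated and 6.68 and 10.4 CPM with CI994 and Ly6g at 0.283 and 0.548 CPM untreated and 2.62 and 2.37 CPM with CI994. Lyz2 held 2 to 8 reads in each untreated library of the 3 lines, so it passed the filter only through the treated ones. Members so low untreated could be called mainly as rises, which limits the count of rises in this and the other marker lists. The defining markers were at or near 0: Itgam, Adgre1, S100a9, Ms4a1, Cd3g and Mpo had no read in any of the 4 libraries, and Ptprc, the pan-leukocyte antigen CD45, was at 0.378 CPM or less.

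Of 13 fibroblast markers 6 were tested and all 6 were higher (6 in the 11-library fit; 5 with the GC trend removed), with 4 of the 6 (Col1a1, Col1a2, Col3a1 and Pdgfra) also on the matrix list and a summed level of 20.2 and 20.7 CPM untreated and 53.8 and 54.9 CPM treated. Cd34 was at 1.75 and 1.79 CPM untreated and 10.7 and 8.94 CPM with CI994 (log2 change 2.12 ± 0.20 (SE), adjusted p = 2.93e-04) and Pdgfra, a receptor for PDGF, at 15.8 and 15.5 CPM untreated and 34.5 and 36.2 CPM with CI994 (log2 change 1.08 ± 0.11 (SE), adjusted p = 3.32e-04). Lum, Dpt, Pi16 and Fbln1, which define fibroblasts in tissue, had no read in any of the 4 libraries, and Dcn was at 0.0472 CPM or less. Endothelial markers summed to 1.99 CPM or less in each library, and 1 of 12 was tested, Egfl7, which was called higher in the 12-library and the 11-library fit and did not pass once the GC trend was removed; Pecam1 was at 0.199 CPM or less, and Cldn5, Emcn, Erg and Plvap had no read. Of 8 adipocyte markers 2 were tested and 1 was higher (1 in the 11-library fit), Lipe at 6.28 and 8.07 CPM untreated and 14.4 and 16.8 CPM with CI994; Plin1, Lep and Cfd had no read.

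Mammary lineage markers were read last. Of 10 tested luminal markers 1 was higher and 0 lower (3 and 2 in the 11-library fit; 1 and 2 with the GC trend removed), and the luminal factors Gata3 and Foxa1 had log2 changes of 0.02 and -0.05. Of 6 tested basal markers 2 were higher (2 in the 11-library fit), Krt14 and Procr, while Krt5 stayed at 0.0996 CPM or less and Trp63 at 0.358 CPM or less.

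The response of shTet2 cells was then set beside that of shControl and shMbd3 cells to the same treatment; these comparisons share no library with each other. Across the 12808 tested genes the log2 changes in shTet2 cells had a Pearson r of 0.765 with those in shControl cells and of 0.797 with those in shMbd3 cells, given as descriptions across genes, which are not independent replicates and share their base composition. Of the 3108 genes called in shTet2 cells 94.1% had the same sign in shControl cells and 96.1% in shMbd3 cells. The called rises had a median log2 change of 0.73 in shControl cells and 0.69 in shMbd3 cells, against 1.03 in shTet2 cells, where they were selected. The numbers called in each line depend on the spread that the fit shares and are not compared. Much of the response described above was shared in direction: H1f0 changed by 1.31, 1.38 and 1.44 in shTet2, shControl and shMbd3 cells, Epha1 by 2.29, 2.07 and 1.91, and Hmga2 by -1.87, -2.26 and -1.28.

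A test of the difference between lines, the CI994 effect in shTet2 cells minus that in shControl cells, called 88 genes (53 higher and 35 lower in shTet2 cells), 0.687% of those tested. The 11-library fit called 388 higher and 427 lower, and 83 of the 88 were among them. This count leans on single libraries and on the spread that is shared: the 8 libraries of these 4 groups alone gave 0 calls (1083 at an unadjusted p under 0.05), and so did the fits without untreated shTet2 replicate 1 and without treated shTet2 replicate 1. Without treated shTet2 replicate 2 or treated shControl replicate 1 there was 1 call, and without untreated shTet2 replicate 2 or treated shControl replicate 2 there were 12, while 4900 were called without untreated shControl replicate 2. With the GC trend removed 519 genes were called. The 24 genes that the naming rule picks here all passed in the 11-library fit and with the GC trend removed. Of these 24, 14 passed with edgeR on the recovered reads (highest adjusted p 0.855), 18 with DESeq2 (highest 0.992) and 17 with a pseudocount of 0.1, and 1, Xirp2, turned sign with edgeR and with DESeq2.

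Of the genes with a larger rise in shTet2 cells, Scn3a was at 0.0458 and 0.192 CPM in shControl cells and rose to 2.68 and 2.56 CPM, against 21.4 and 15.2 CPM in treated shTet2 cells (difference of log2 effects 2.79 ± 0.28 (SE), adjusted p = 0.0106). Il1rn went from 0.412 and 0.958 CPM to 0.480 and 1.16 CPM in shControl cells (difference 2.92 ± 0.40 (SE), adjusted p = 0.0210). Xirp2, an actin-binding protein of muscle, went from 0.661 and 0.797 CPM to 11.2 and 8.94 CPM in shTet2 cells and from 0 and 0 CPM to 0.280 and 0.0503 CPM in shControl cells (difference 2.67 ± 0.28 (SE), adjusted p = 0.0106). In these 3 genes both treated shTet2 libraries stood above every shControl library. None of the 3 passed with edgeR, and Il1rn passed with DESeq2. Xirp2, without a read in untreated shControl cells, had a difference of -1.27 with edgeR (adjusted p = 0.829) and -0.58 with DESeq2 (adjusted p = 0.992).

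Il1a, Fry, Sema4f and Slc6a13 also rose more in shTet2 cells, with differences of 2.31, 2.56, 2.82 and 3.12. Of these, Fry also passed with edgeR, with DESeq2 and with a pseudocount of 0.1. Sema4f did not pass with edgeR (adjusted p = 0.0605), and Il1a passed only with DESeq2. Slc6a13, with 0 and 1 reads in the untreated libraries of both shControl and shTet2 cells, passed with none (adjusted p 0.797 with edgeR, 0.604 with DESeq2 and 0.074 with the pseudocount of 0.1). In others the gene fell in shControl cells. Itga8, an integrin chain, went from 36.1 and 30.2 CPM to 2.48 and 2.67 CPM in shControl cells. In shTet2 cells it went from 1.56 and 1.89 CPM to 0.423 and 0.268 CPM. Itga8 thus fell in both lines from different levels (difference 2.03 ± 0.27 (SE), adjusted p = 0.0210). Its treated shTet2 values lay below the pseudocount of the main fit, so the size of that fall depends on the pseudocount. The difference did not pass with edgeR (1.37, adjusted p = 0.255) or with DESeq2 (1.37, adjusted p = 0.269). Nor did it pass with a pseudocount of 0.1 (1.55, adjusted p = 0.149). Tnfsf10, the death ligand TRAIL, went from 6.22 and 4.50 CPM to 1.24 and 1.26 CPM in shControl cells and was at 0.283 and 0.299 CPM untreated and 0.592 and 0.671 CPM with CI994 in shTet2 cells (difference 2.25 ± 0.27 (SE), adjusted p = 0.0158). Itgb8, Ccdc68 and Zfp354c were higher with CI994 in shTet2 cells and had negative changes in shControl cells, of -1.44, -0.44 and -1.06.

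Genes that rose less, or fell, in shTet2 cells were mostly higher in untreated shTet2 cells than in untreated shControl cells. Mmp13 went from 40.3 and 34.9 CPM to 623 and 428 CPM in shControl cells and from 58.2 and 74.01 CPM to 199 and 239.5 CPM in shTet2 cells (difference -2.08 ± 0.30 (SE), adjusted p = 0.0225). Pfkp went from 20.04 and 27.2 CPM to 157 and 146 CPM in shControl cells (difference -2.03 ± 0.20 (SE), adjusted p = 0.0106). Lama3 rose in shControl cells from 80.4 and 74.6 CPM to 242 and 164 CPM and fell in shTet2 cells (difference -1.98 ± 0.29 (SE), adjusted p = 0.0216). For Lama3 and Pfkp the treated libraries of the lines lay closer together than the untreated ones. Mal, Mmp1b and Sgk2 did not pass in shTet2 cells and had changes of 1.76, 2.20 and 1.90 in shControl cells. Selp and Ripply1 held 3 reads or fewer in the untreated shTet2 pair, so their differences rest on the level in shControl cells and on the pseudocount.

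The same test against shMbd3 cells called 4 genes, 0.0312% of those tested, 3 higher and 1 lower in shTet2 cells. The 11-library fit called 201 higher and 344 lower, the 4 genes among them. With edgeR on the recovered reads 0 genes passed (832 at an unadjusted p under 0.05), with DESeq2 43 passed, and with the GC trend removed 70. Of the 4 genes only Ppbp passed with DESeq2 (highest adjusted p of the 4 0.999), and only Scn3a with a pseudocount of 0.1. U90926, without a read in untreated shMbd3 cells, turned sign with edgeR (-2.44) and with DESeq2 (-1.99). Scn3a was at 0 CPM in both untreated shMbd3 libraries and at 0.126 and 0.0622 CPM with CI994 (difference 4.89 ± 0.28 (SE), adjusted p = 2.60e-04). U90926 was at 0.631 and 0.622 CPM in treated shMbd3 cells, against 37.9 and 38.5 CPM in treated shTet2 cells (difference 2.85 ± 0.22 (SE), adjusted p = 0.00240). Cyp21a1 was at 0.420 and 0.124 CPM in treated shMbd3 cells (difference 2.76 ± 0.30 (SE), adjusted p = 0.0244). Ppbp, a platelet chemokine, went from 3.30 and 3.35 CPM to 10.1 and 9.82 CPM in shMbd3 cells and was at 9.07 and 8.07 CPM untreated and 6.09 and 7.60 CPM with CI994 in shTet2 cells (difference -1.82 ± 0.22 (SE), adjusted p = 0.0402). With any 1 of the 8 libraries of these groups left out 2 or 3 of the 4 genes passed, Scn3a and U90926 in each case.

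**Figure D5:**
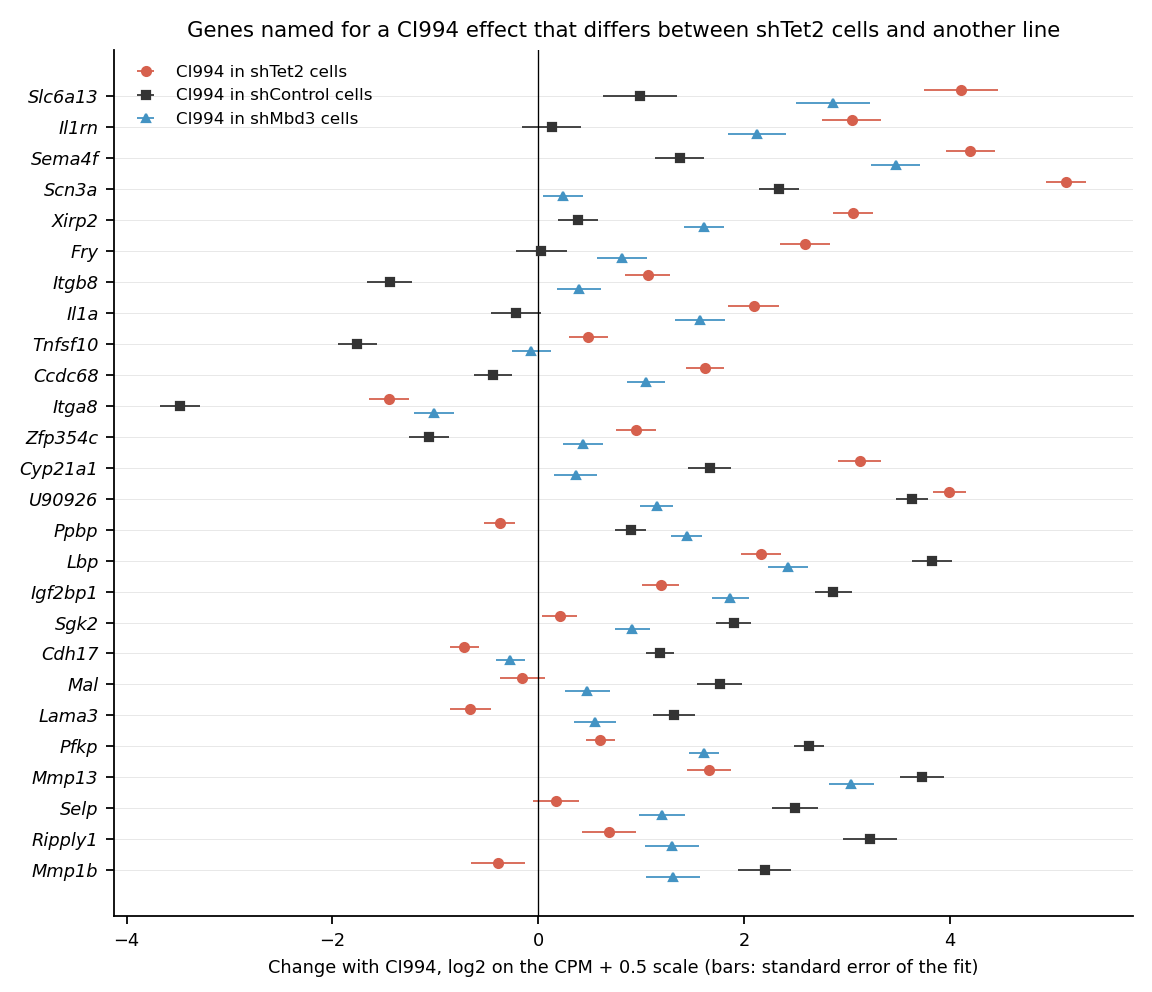
Change with CI994 (x axis, log2, with the standard error of the fit) in shTet2, shControl and shMbd3 cells for 26 genes named for a difference between lines. Scn3a has changes of 5.13, 2.34 and 0.24 in that order, and Mmp13 changes of 1.66, 3.73 and 3.04.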

How the data were processed

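RNA-seq expression of 12 M3 libraries carrying shRNAs was used. The deposited tables give CPM per gene, which the authors made from total RNA libraries with STAR and mm10, per the submitters' processing notes. Versions, and how reads were counted and by strand, are not given in the sources used here. The 8 libraries of the series in another unit are not used here. In every library 100% of values came out as whole reads within 0.01 reads, so depth was known. IDs were named from RefSeq tables (99.7% matched).

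Genes at 0.5 CPM or more in 2 or more of the 12 libraries were tested with limma 3.58.1 (R 4.3.3) on log2(CPM over the TMM factor + 0.5), with 1 mean per group, trended and robust variances and Benjamini-Hochberg adjustment at 0.05. Fold changes on this scale understate changes of low genes. Effects of CI994 were compared between lines by a contrast of differences. The labels say 2 independent experiments, with n = 2 per group. Alternatives were edgeR 4.0.16 and DESeq2 1.42.0 on recovered reads, other scaling, filter and pseudocount, GC trend removal, the replicate block and leaving out libraries. The fit without untreated shControl replicate 1 was chosen for emphasis after seeing the data. Scripts were tested on simulated data.

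Genes were named by rule: 15 genes fixed by name; in each comparison the 12 largest called rises and falls at 5 CPM or more in at least 1 group, numbered gene models left out; up to 4 called rises and 4 called falls per list at 1 CPM or more (the member of smallest p from a list with no call); and the 6 genes of largest moderated t. For CI994 in shTet2 cells these largest rises and falls also had to have both libraries of a group beyond both of the other. Members and lists were chosen with earlier results of these data known. Some genes that the rule names are not reported here.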

Additional observations from a re-analysis of the deposited data

Results flagged for a closer look

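These results drew attention because a test of the difference itself, the CI994 effect in shTet2 cells minus the effect in another line (limma, Benjamini-Hochberg adjustment, n = 2 libraries per group), passed. Against shControl cells 88 genes passed, and against shMbd3 cells 4. Values are differences of log2 effects, positive where the change with CI994 was higher in shTet2 cells.

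Against shControl cells the difference was 3.12 for the GABA transporter gene Slc6a13, 2.92 for the interleukin-1 receptor antagonist gene Il1rn, 2.82 for Sema4f, 2.79 for the sodium channel gene Scn3a, 2.67 for Xirp2 and 2.56 for Fry. It was 2.51 for the integrin gene Itgb8, 2.31 for Il1a, 2.25 for Tnfsf10, 2.10 for the axonal gene Stmn2, 2.06 for Ccdc68, 2.03 for the integrin gene Itga8 and 2.01 for the zinc finger gene Zfp354c. Negative differences were -2.59 for the collagenase gene Mmp1b, -2.53 for Ripply1, -2.32 for the P-selectin gene Selp, -2.08 for Mmp13, -2.03 for Pfkp and -1.98 for Lama3. Further negative differences were -1.92 for Mal, -1.90 for the cadherin gene Cdh17, -1.69 for the kinase gene Sgk2, -1.68 for the RNA-binding protein gene Igf2bp1, -1.66 for Lbp, -1.27 for the chemokine gene Ppbp, -1.10 for Pdk1 and -0.96 for Pgk1. None of these differences was tested in a library that the fit did not use. Those of Slc6a13, Xirp2, Itga8, Ripply1 and Selp did not pass with edgeR, with DESeq2 or with a pseudocount of 0.1.

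Against shMbd3 cells the difference was 4.89 for Scn3a, 2.85 for U90926, 2.76 for Cyp21a1 and -1.82 for Ppbp. Scn3a, U90926 and Cyp21a1 lay at or near 0 in untreated shMbd3 cells, where the size of a log2 effect depends on the pseudocount.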

How the results depend on the processing

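For CI994 in shTet2 cells, 3108 genes were called, and the count was within 1.5 times of that under other scaling, other pseudocounts, no filter, GC trend removal, edgeR and DESeq2. It was 7365 with only the groups compared, 7368 without both untreated shControl libraries and from 922 to 7368 when 1 library was left out. The replicate block called 4157, and 5348 with the GC trend removed as well. The main fit did not pair samples by replicate number, and the labels do not say whether a number marks the experiment. Same-numbered deviations correlated positively in all 15 pairs of groups, at 0.0957 in 1 pair and at 0.222 to 0.524 in the rest. Whether samples of the same number came from the same experiment was not tested, so the counts with the replicate block stand beside the main ones. For shTet2 minus shControl (88 genes) the count was 56 with a pseudocount of 0.1, 38 with edgeR, 267 with DESeq2, 519 with the GC trend removed, 175 with the replicate block, 1204 with both, and 0 with only the groups compared (1083 at an unadjusted p under 0.05). It ranged from 0 to 4900 when 1 library was left out. For shTet2 minus shMbd3 (4 genes) the count was 38 without a filter, 1 and 24 with pseudocounts of 0.1 and 1, 70 with the GC trend removed, 264 with the replicate block and the GC trend removed, and 6 with the replicate block alone. It was 425 with only the groups compared, 534 without both untreated shControl libraries, 0 with edgeR (832 at an unadjusted p under 0.05), 43 with DESeq2 and from 2 to 545 when 1 library was left out. Named genes whose log2 change turned sign had not passed: with the GC trend removed, with or without the replicate block, Mbd3 was at -0.30, Hdac3 at 0.0566, Hdac8 at 0.071 and Epcam at -0.14. Hdac3 was at 0.0051 with library size scaling, and Epcam ranged from -0.0147 (without untreated shTet2 replicate 1) to 0.0882 when 1 library was left out. Of the 228 named genes 206 kept their side of the threshold and direction with the GC trend removed, and 226 with edgeR. The cause of these shifts was not tested. In 2 genes a difference between lines that had passed turned sign with the count tools, where it did not pass: Xirp2 (shTet2 minus shControl) to -1.27 with edgeR and -0.58 with DESeq2, and U90926 (shTet2 minus shMbd3) to -2.44 and -1.99. A p that missed the threshold shows no equality.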

Other observations

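Other gene lists were read against the shares of all tested genes, 12.6% higher and 11.7% lower. The 11-library fit called 3737 higher and 3631 lower among all 12808 tested genes, so its counts are to be read against those larger shares. In oxidant defence 7 of 22 tested genes were higher and 2 lower with CI994 in shTet2 cells (9 and 3 in the 11-library fit). Aldh1a1, an aldehyde dehydrogenase that makes retinoic acid, was at 0.142 and 0.349 CPM untreated and 6.97 and 4.29 CPM with CI994 (log2 change 2.99 ± 0.26 (SE), adjusted p = 2.33e-04), and Txnip, which binds thioredoxin, was at 9.16 and 8.47 CPM untreated and 36.1 and 24.2 CPM with CI994 (log2 change 1.62 ± 0.24 (SE), adjusted p = 0.00214). Both treated libraries lay above both untreated ones in each, as in 5744 of all 12808 tested genes. Among 26 fatty acid and lipid genes 4 were higher and 1 lower (8 and 3 in the 11-library fit), with Acacb, an acetyl-CoA carboxylase, up by 1.54 and the elongase gene Elovl6 down by 0.60.

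Of 30 tested lysosome and autophagy genes 3 were higher and 1 lower (18 and 4 in the 11-library fit), with the protease gene Ctsz up by 1.25 and the glucuronidase gene Gusb down by 0.64. Of 28 stress response genes 2 were higher and 3 lower (6 and 6 in the 11-library fit; 2 and 6 with the GC trend removed), with the transcription factor genes Atf3 up by 0.89 and Atf4 down by 0.59. Of 12 contractile and cytoskeletal genes 3 were higher (9 in the 11-library fit), and Tubb2b, a tubulin with near-identical relatives, was at 76.5 and 80.3 CPM untreated and 252 and 262 CPM with CI994 (log2 change 1.64 ± 0.27 (SE), adjusted p = 0.00323). Of 29 germline genes, often silenced in somatic cells, 5 were tested and 1 was higher (1 in the 11-library fit), the testis bromodomain gene Brdt at 0.897 and 0.697 CPM untreated and 2.32 and 2.68 CPM with CI994 (log2 change 1.17 ± 0.18 (SE), adjusted p = 0.00232); 13 of the 29 had no read in any of the 4 libraries. Of 31 ribosomal protein genes 0 were higher and 5 lower (12 and 10 in the 11-library fit), each by less than 1 log2 unit, and their reads can be shared with processed copies.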
